A study of Mus musculus with 58 samples.

Results

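The neuregulin receptor gene Erbb4 was followed, cell by cell, in parvalbumin (PV) neurons from the ventral subiculum of mice, together with Erbb3, a second receptor gene, and the ligand genes Nrg1, Nrg2, Nrg3 and Nrg4. These 6 genes were chosen by name, and all 6 were found among the 25648 genes of the deposited count table. The animals carried PV-Cre and Ai9, a reporter that Cre recombinase switches on. No drug or other treatment is labelled, and the genotype was shared by every group. Each library holds the cytosol of 1 cell, taken up through a patch electrode. The cells with the quality label Pass numbered 54: 17 female cells at postnatal day 40 (P40) and 10 at P42, and 14 male cells at P35 and 13 at P36. Another 4 cells were labelled Fail and are given apart. Cells came from 3 female and 4 male animals but are not tied to them in the labels. Counts of Pass cells were therefore added up into 4 pools, 1 for each sex and age, and these are separate animals only where no animal gave cells on more than 1 day. Both female pools were older than both male pools, so sex and age cannot be told apart.

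Neuregulins are growth factors with an EGF-like domain, mostly made as membrane-bound precursors that proteases cut. ErbB4 is a receptor tyrosine kinase that binds them, and in the forebrain it is known chiefly from GABAergic interneurons, PV cells among them, where it acts at the excitatory synapses these cells receive. ErbB3 binds Nrg1 and Nrg2, has little kinase activity of its own and is best known from myelinating glia. Nrg3 and Nrg4 are known as ligands of ErbB4. The Ai9 reporter stays on once Cre has acted, so a marked cell need not make parvalbumin at harvest.

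A Pass cell had between 2.05 and 52.3 M counts in all, and the median was 11.502 M. The female pools held 229 M (P40) and 123 M counts (P42), and the male pools 173 M (P35) and 162 M (P36). Gad1, which makes GABA, had 1337 to 6751 CPM (counts scaled to a cell total of 1 M) in the 54 cells, and Pvalb had at least 1 count in all of them. Sst, the marker of somatostatin interneurons, lay above Pvalb in 14 cells, so Pvalb was not the leading one of these markers in every cell labelled PV. Counts of Slc17a7, the glutamate transporter of excitatory neurons, were also present in 54 of 54 cells, at a median of 9.07 CPM, so a few counts of a gene do not by themselves show that the harvested cell made it.

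Erbb4 was present in every cell and varied little compared with Pvalb. It had 39.0 CPM in the lowest, 199 CPM in the median and 456 CPM in the highest of the 54 Pass cells. At least 1 CPM was found in 54 of 54 cells (exact 95% binomial interval 93.4% to 100%). This interval and the later ones take cells as independent draws, which cells of 1 animal are not, and leave out differences between animals. Female P40 cells lay between 102 and 456 CPM (median 251), and female P42 cells between 84.7 and 366 CPM (median 196). Male P35 cells lay between 39.0 and 393 CPM (median 217), and male P36 cells between 47.2 and 296 CPM (median 161). The 4 ranges overlapped widely. On the log2(CPM + 1) scale the level was 7.91 ± 0.63 in female P40 (SD, n = 17 cells), 7.56 ± 0.67 in female P42 (n = 10), 7.66 ± 0.85 in male P35 (n = 14) and 7.12 ± 0.73 in male P36 cells (n = 13). Ordered by these means, female P40, male P35, female P42 and male P36, each neighbour differed from the next by less than the SD of cells within a pool. The highest and the lowest mean, female P40 and male P36, differed by 0.79, more than the SD of cells in 3 of the 4 pools. Differences between pools made up 15.1% of the variance of Erbb4 over cells.

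**Figure D1:**
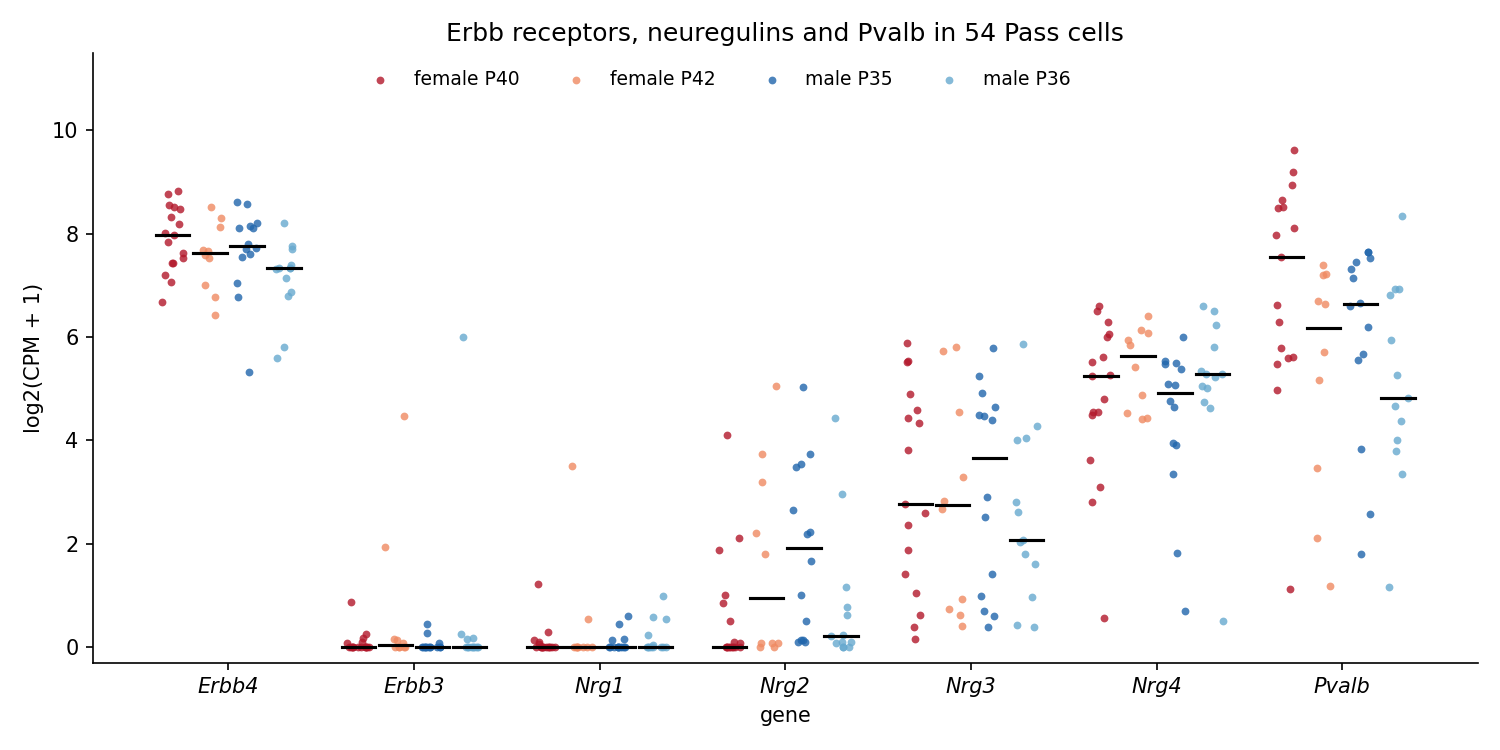
Level of each gene in each of the 54 Pass cells, as log2(CPM + 1), with 1 point per cell and a bar at the median of each pool. Erbb4 sits in a band between 39.0 and 456 CPM in every pool, while Erbb3 and Nrg1 are at or near 0 in most cells and Nrg3 and Pvalb spread over a wide range.

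The spread of Erbb4 was much like that of other genes at its level. Its SD over cells was 0.77 on the log2(CPM + 1) scale, against a median SD of 0.67 for the 762 genes whose mean lay within 0.5 of its own, and 32.9% of those genes had a larger SD. Pvalb stood apart on the same measure, with an SD of 2.13, and 0.565% of the 1770 genes near its level had a larger one. The coefficient of variation of Erbb4 over cells was 46.2%, and the quartiles were 149 and 281 CPM.

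The low end of Erbb4 held cells rich in Sst. The lowest level, 39.0 CPM, was in male P35 cell 3, which had 3298 CPM of Sst and 2.49 CPM of Pvalb. Male P36 cells 8 and 13 followed with 47.2 and 54.9 CPM of Erbb4 and 268 and 297 CPM of Sst, and then female P42 cell 8 with 84.7 CPM of Erbb4 and 257 CPM of Sst. All 4 had Sst above Pvalb, as did 14 of the 54 cells, a feature of the low cells that was seen after their values were known. The other 10 of these 14 cells lay between 127 and 321 CPM of Erbb4, within the range of the rest. Female P40 cell 14 had 589 CPM of Sst and 321 CPM of Erbb4, so high Sst did not always go with low Erbb4. Of the 4 lowest cells, male P36 cell 13 also had 428 CPM of Slc17a7, the most of any cell. Its Gad1, 1337 CPM, was the lowest of any cell. Over the 54 cells the Spearman correlation of Erbb4 and Sst was -0.30. It was 0.19 within female P40, -0.30 within female P42, -0.76 within male P35 and -0.41 within male P36 cells, and it came to -0.15 over all cells but those of male P35. The high end was set by female P40 cells 3 and 13, with 456 and 438 CPM, and cell 3 was also the most deeply sequenced cell.

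Erbb4 and Pvalb had a positive correlation over all cells that was not seen in every pool. The Spearman correlation of their log2 levels over the 54 cells was 0.24 (Pearson 0.37). For all 10134 genes with at least 1 CPM in at least 27 cells, the correlation with Pvalb ran from -0.29 to 0.30 between the 2.5th and 97.5th percentile, and 93.8% of them lay below the value of Erbb4. By Pearson, Pvalb was the 103rd closest of 10134 genes to Erbb4, above the 97.5th percentile of 0.31. Within pools the Spearman correlation of Erbb4 and Pvalb was 0.03 (female P40), -0.12 (female P42), 0.35 (male P35) and 0.20 (male P36). Without the 16 cells whose Sst or Vip lay above their Pvalb, a choice that also removes most cells low in Pvalb, it was 0.11. Cells almost without Pvalb could be high in Erbb4: female P40 cell 11 had 1.18 CPM of Pvalb and 259 CPM of Erbb4. Of the ligand genes, Nrg3, Nrg2 and Nrg4 had Spearman correlations with Pvalb of 0.12, 0.04 and -0.03. Nrg1, with a count in only 16 cells, had one of -0.36, negative in every pool (-0.45 in female P40, -0.45 in female P42, -0.03 in male P35 and -0.47 in male P36). In each cell both genes come from the same library and are divided by the same total. Cells of 1 animal are also not independent, so these correlations are descriptions and carry no p.

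**Figure D2:**
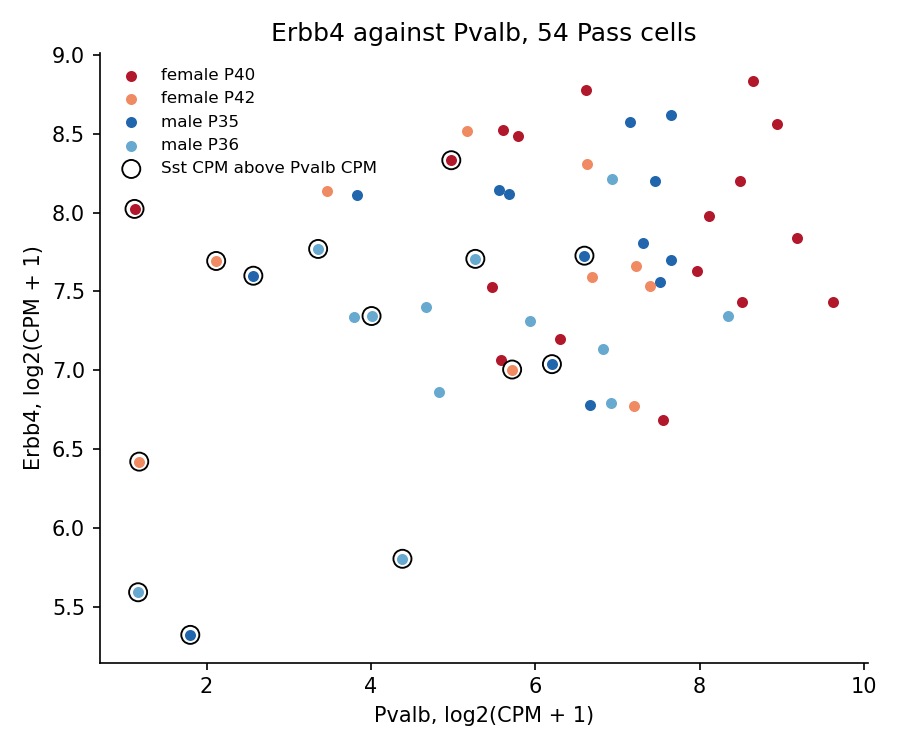
Erbb4 against Pvalb in the 54 Pass cells, both as log2(CPM + 1), coloured by pool, with rings around the 14 cells in which Sst lay above Pvalb. The 4 cells lowest in Erbb4, from 39.0 to 84.7 CPM, all carry a ring, and the other ringed cells lie among the rest.

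Nrg3 was found in every cell, and its annotated exons share no bases with another gene. It had a count in 54 of 54 cells, at least 1 CPM in 40 and at least 10 CPM in 22, with 0.118 CPM in the lowest, 5.61 in the median and 58.4 in the highest cell. Its medians were 5.84 CPM in female P40, 5.76 in female P42, 13.3 in male P35 and 3.21 in male P36 cells, and the highest cell of each pool lay between 54.3 and 58.4 CPM. Differences between pools made up only 1.66% of its variance. The spread of Nrg3 was usual for its level: its SD was 1.87 on the log2(CPM + 1) scale, and 68.6% of the 1649 genes near its mean had a larger one.

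Among the member genes, Nrg3 went with Erbb4 most closely. The Spearman correlation of their log2 levels over 54 cells was 0.50 (Pearson 0.42), the 9th highest of 10134 genes by Spearman and the 44th by Pearson. Within pools it was 0.71 in female P40, 0.28 in female P42, 0.23 in male P35 and 0.53 in male P36 cells, positive in each. It was 0.38 without female P40, the lowest of the values with 1 pool left out, 0.51 without the 16 cells with Sst or Vip above Pvalb, and 0.50 when every cell was thinned to 2 M counts. The level of Nrg3 and the total count of a cell had a correlation of -0.08. Between Erbb4 and the other ligand genes the Spearman correlations were 0.23 for Nrg4 and 0.12 for Nrg2.

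**Figure D3:**
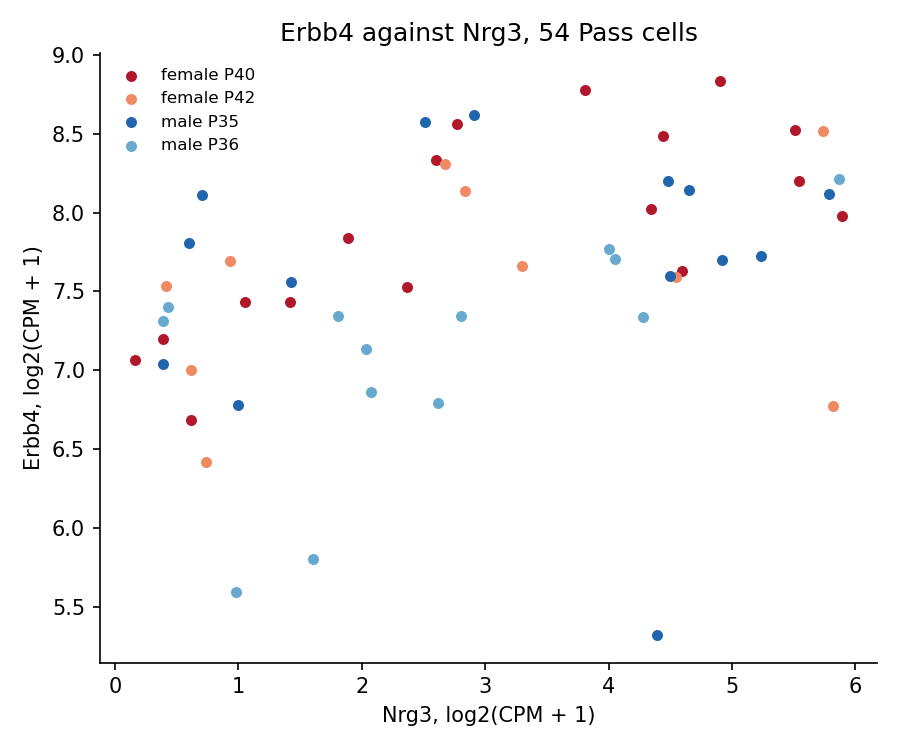
Erbb4 against Nrg3 in the 54 Pass cells, both as log2(CPM + 1), coloured by pool. Cells low in Nrg3 tend to lie lower in Erbb4 (Spearman 0.50), but male P35 cell 3 has 19.99 CPM of Nrg3 and the lowest Erbb4.

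Because Erbb4 and Nrg3 went together, the 250 bases before the start of each gene are shown (RefSeq promoters on GRCm38.p6, minus strand, CG dinucleotides in capitals). Erbb4 spans chr1:68032186-69108059 and Nrg3 spans chr14:38368952-39473088 on GRCm38, and the stretches lie at chr1:69108060-69108309 and chr14:39473089-39473338.
Erbb4: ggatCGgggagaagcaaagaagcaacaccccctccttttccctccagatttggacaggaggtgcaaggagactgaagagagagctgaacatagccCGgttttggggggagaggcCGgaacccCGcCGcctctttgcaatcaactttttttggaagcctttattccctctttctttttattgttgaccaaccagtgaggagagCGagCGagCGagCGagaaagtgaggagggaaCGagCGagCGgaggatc
Nrg3: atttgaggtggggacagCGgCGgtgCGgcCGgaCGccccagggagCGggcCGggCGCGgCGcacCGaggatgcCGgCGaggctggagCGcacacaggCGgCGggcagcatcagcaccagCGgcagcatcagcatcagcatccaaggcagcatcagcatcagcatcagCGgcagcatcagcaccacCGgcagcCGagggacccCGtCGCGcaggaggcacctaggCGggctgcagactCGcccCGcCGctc
The stretch of Erbb4 holds 12 CG dinucleotides, and 33.5% of 32851 promoters of that length hold at least as many. The stretch of Nrg3 holds 27, a number reached by 8.56%. TATAAA was found on neither strand of either stretch, while 12.4% of the promoters hold it. These letters are a description, and nothing about a binding factor follows from them.

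Nrg2 was high in a few cells and absent or nearly so in most. It had a count in 40 of 54 cells (74.1%, interval 60.3% to 85.0%) and at least 1 CPM in 21, with a median of 0.163 CPM. With every cell thinned to 2 M counts, 25 cells kept a count. Its highest levels were 32.1 CPM in female P42 cell 4, 31.6 CPM in male P35 cell 2 and 20.5 CPM in male P36 cell 3. It was at 0 in 9 of the 17 female P40 cells, whereas all 14 male P35 cells had a count, with a median of 2.86 CPM. This contrast in detection was not set beside that of other genes, so it is not read as particular to Nrg2. The highest Nrg2 cell of male P36, cell 3, also held 2329 CPM of Vip, the peptide of another interneuron class, and the highest cell of all held 13.5 CPM of Vip, the most of any female cell, and 175 CPM of Sst. Over the 54 cells Nrg2 and Vip had a Spearman correlation of 0.41, with 0.47 in female P40, 0.82 in female P42, 0.14 in male P35 and 0.57 in male P36, in counts that are sparse for both genes. Cells with Nrg2 were not the cells without Nrg3: of the 21 cells at 1 CPM of Nrg2 or more, 16 also reached 1 CPM of Nrg3.

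Nrg1 was close to absent. It had a count in 16 of 54 cells (29.6%, interval 18.0% to 43.6%) and reached 1 CPM in 2, female P42 cell 10 with 10.4 CPM and female P40 cell 10 with 1.32 CPM. Female P42 cell 10 held 171 of all 243 counts, or 70.4%. The same cell had the highest sum of the 6 markers of oligodendrocyte precursors, 721 CPM, among them 64.0 CPM of Sox10. The cell with the next highest sum, male P36 cell 13 with 688 CPM, had the third highest Nrg1, 0.991 CPM. The second highest Nrg1 cell, female P40 cell 10, had no Sox10 count and a precursor sum of 25.9 CPM, the 24th highest. Over the 54 cells the Spearman correlation of Nrg1 and Sox10 was 0.14 (Pearson 0.54). Where a cell had no count at the median depth, levels up to 0.261 CPM (3 counts) remain possible.

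Erbb3 was likewise limited to a few cells. It had a count in 17 of 54 cells (31.5%, interval 19.5% to 45.6%) and at least 1 CPM in 3. Male P36 cell 9 had 63.0 CPM, female P42 cell 10 had 21.2 CPM and female P42 cell 4 had 2.85 CPM, and the first 2 of these held 96.3% of its 1076 counts. Female P42 cell 10 is the cell that also held most of the Nrg1 counts. Over the 54 cells Erbb3 and Sox10 had a Spearman correlation of 0.58, positive in every pool (0.64 in female P40, 0.68 in female P42, 0.60 in male P35 and 0.42 in male P36), in counts that are sparse for both. Male P36 cell 9, the highest in Erbb3, was not among the highest cells of either oligodendrocyte list: its 8 oligodendrocyte markers summed to 564 CPM, the 24th highest, and its precursor markers to 13.1 CPM, the 34th highest. Over all 54 cells the precursor markers summed to 0.221 to 721 CPM with a median of 20.5 CPM, and the oligodendrocyte markers to 97.4 to 12822 CPM with a median of 483. Their part in Erbb3 and Nrg1 was not tested.

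Leaving Nrg4 aside, 46 of 54 cells (85.2%, interval 72.9% to 93.4%) reached 1 CPM of at least 1 of Nrg1, Nrg2 and Nrg3. The number was 14 of 17 in female P40, 9 of 10 in female P42, 13 of 14 in male P35 and 10 of 13 in male P36 cells. Of the 54 cells, 29 reached it for 1 of the 3 genes and 17 for 2, and none for all 3. Among markers of other cell types, Slc17a7 reached 1 CPM in 44 of 54 cells and the microglia marker C1qa in 46. The excitatory neuron marker Neurod6 reached it in 17 and the astrocyte marker Gfap in 21. The share of 85.2% alone therefore does not show that these cells made a neuregulin. Per kilobase of exon, the summed counts of the Pass cells were 66.2% Nrg3, 32.7% Nrg2 and 1.07% Nrg1. By coding length they were 82.4% Nrg3, 15.6% Nrg2 and 2.06% Nrg1, and without female P42 cell 10 the share of Nrg1 was 0.320% by exon. The Nrg2 share leaned on few cells. Male P36 cell 3, the cell high in Vip, held 21.2% of the Nrg2 counts, female P40 cell 13 held 16.4% and male P35 cell 2 held 13.5%.

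Nrg4 was measured in every cell, at 0.415 CPM in the lowest, 36.9 CPM in the median and 96.3 CPM in the highest, but its counts followed those of another gene. Fbxo22, an F-box gene of a ubiquitin ligase, lies on the opposite strand and overlaps it. Nrg4 spans chr9:55220222-55326844 on the minus strand and Fbxo22 spans chr9:55208925-55224433 on the plus strand (GENCODE vM21 on GRCm38). Their annotated exons share 368 bases, 6.06% of the Nrg4 exons and 15.4% of those of Fbxo22, in blocks of 166 bases (chr9:55221022-55221187, coding in Fbxo22 and non-coding in Nrg4) and 202 bases (chr9:55224232-55224433, non-coding in both). The first 30 shared bases, chr9:55221022-55221051, are shown as each strand reads them, since any read from this stretch fits both genes unless its strand is known.
Fbxo22, plus strand: gtcttctggacaaccctgaacttcgtgtgg
Nrg4, minus strand: ccacacgaagttcagggttgtccagaagac
The library kit, Nextera XT, does not mark strand, and the sources used here do not give the strand setting of the counting.

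The counts of Nrg4 and Fbxo22 kept a similar ratio in most cells. The Pearson correlation of their log2 levels over the 54 cells was 0.97 (Spearman 0.95), the highest of 10134 genes for Nrg4, and the next gene, Zfp655, reached 0.60. Nrg4 counts divided by Fbxo22 counts had a median of 0.392 and quartiles of 0.358 and 0.448, and 47 of 54 cells lay between 0.25 and 0.6. Nrg4 itself varied more, its upper quartile being 2.52 times its lower one, against 1.25 times for the ratio. The 4 cells lowest in Nrg4 were the 4 lowest in Fbxo22, with 0.415 to 2.53 CPM of Nrg4 and 0.945 to 6.22 CPM of Fbxo22. Male P36 cell 8 had the lowest ratio, 0.067, with 12 Nrg4 and 180 Fbxo22 counts. The highest ratio, 0.816, was in female P40 cell 3, the most deeply sequenced cell. Reads of the 2 genes cannot be told apart in the shared stretch, which is 15.4% of the Fbxo22 exons. The part of that stretch in the median ratio of 0.392 was not tested, and every Nrg4 level here is uncertain.

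**Figure D4:**
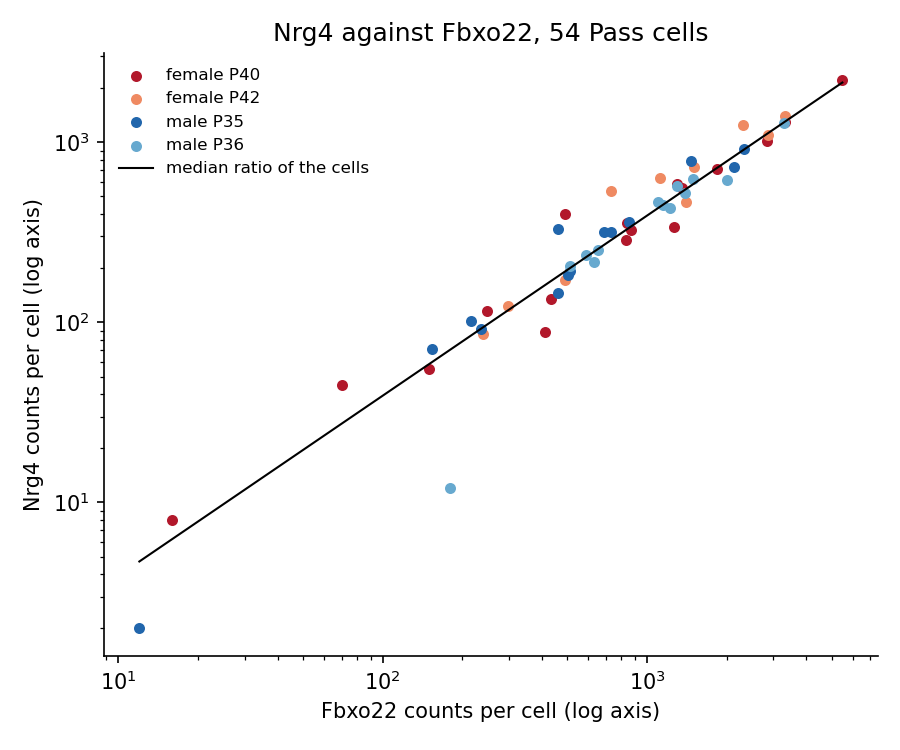
Counts of Nrg4 against counts of Fbxo22 per cell, both on log axes, with 1 point per Pass cell coloured by pool and a line at the median ratio of 0.392. Most cells lie near the line, and 47 of 54 ratios lie between 0.25 and 0.6, with extremes of 0.067 and 0.816.

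Levels of different genes were compared per kilobase of annotated exon. The median over cells was 16.1 CPM per kb for Erbb4, 6.08 for Nrg4, 0.824 for Nrg3, 0.052 for Nrg2 and 0 for Nrg1 and Erbb3, against 83.5 for Pvalb. Erbb4 lay above Nrg3 in 54 of 54 cells and above Nrg4 in 50, and Pvalb lay above Erbb4 in all but 10. Nrg3 lay above Nrg2 in 37 of 54 cells. The order of Erbb4 and Nrg4 depends on the length used, since Nrg4 has 13 annotated transcripts of very unequal length: Erbb4 lay above Nrg4 in 31 cells by the longest transcript and in 11 by coding length, and above Nrg3 in at least 52 by any of these lengths.

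The genes whose levels were most like Erbb4 over the 54 cells, by Pearson correlation among 10134 genes, were AI593442 (0.57), Eif3a (0.56), Galntl6 (0.54), mt-Nd5 (0.53), Cdk8 (0.53) and Tmem108 (0.52). Eif3a encodes a subunit of a translation initiation factor, mt-Nd5 a mitochondrially encoded subunit of respiratory complex I and Cdk8 a kinase of the Mediator complex. The 97.5th percentile of all genes was 0.31. By Spearman correlation, 4 of the 6 stayed in the top 6, and 3 did when values were centred on the pool means. The percent of counts from the 13 mitochondrially encoded genes also went with Erbb4 (Spearman 0.47), with medians of 1.89% in female P40, 1.23% in female P42, 1.80% in male P35 and 0.824% in male P36 cells, which is the order of the pool medians of Erbb4, and its part in these likenesses was not tested. For Nrg3 the closest genes were Moxd1 (0.56), Enah (0.55), an actin regulator, and Maf (0.52), a transcription factor of interneurons. For Nrg4 they were Fbxo22, Zfp655 and Ankmy2.

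The question of sex was put to the pool sums, since the study compared female and male cells. Erbb4 had 300 CPM in female P40 and 220 CPM in female P42, against 239 CPM in male P35 and 132 CPM in male P36, where pool levels here and below carry edgeR's TMM scaling. The sexes overlapped, and so they did for each of the other 5 genes, whereas 33.9% of the 14933 genes tested had pools that did not overlap. The log2 difference of Erbb4, female minus male, was 0.49 (standard error 0.30), and the quasi-likelihood test of edgeR gave an adjusted p of 0.975 (Benjamini-Hochberg, all tested genes). None of the 6 genes passed at an adjusted p of 0.05, where 0.0134% of all genes were called, nor at an unadjusted p of 0.05, where 5.51% were. DESeq2 called 1.20% of genes and none of the 6, with no adjusted p for Nrg1, and limma called none of them. A missed threshold in 2 pools against 2 does not show that levels were alike.

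The other member genes likewise had differences, female minus male, that did not pass. Nrg3 had 18.6 and 14.5 CPM in the female pools, against 16.5 and 5.87 CPM in the male pools (log2 difference 0.56, standard error 0.66). That difference was 0.002 without male P36 and 1.49 without male P35. Nrg4 had 36.9 and 52.9 CPM in the female pools, against 25.9 and 37.1 CPM in the male pools (0.51, standard error 0.37), and Fbxo22 had a log2 difference of 0.40 (standard error 0.29) beside it. Nrg2 had 1.96 and 3.96 CPM in the female pools, against 4.16 and 3.67 CPM in the male pools (-0.40, standard error 1.16). Nrg1 had 0.108 and 1.45 CPM in the female pools, against 0.0626 and 0.183 CPM in the male pools (2.66, standard error 1.94). This difference was -0.16 without female P42, the pool of cell 10. Erbb3 had 0.0433 and 3.00 CPM in the female pools, against 0.0342 and 4.36 CPM in the male pools (-0.53, standard error 2.30), and ran from -5.63 without female P42 to 5.45 without male P36.

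The Erbb4 difference leaned on single pools and cells as well. It was 0.12 without male P36, the lowest pool, and 0.98 without male P35, and 0.35 without female P40 cell 3, which gave 22.8% of the counts of its pool. Sst, which lay above Pvalb in the 4 cells lowest in Erbb4, had 42.2 and 48.9 CPM in the female pools, against 249 and 96.5 CPM in the male pools (log2 difference -1.92 with a standard error of 0.42, adjusted p = 0.867 by edgeR). In each of the 4 pools 1 cell held most of the Sst counts, 75% in female P40, 70.8% in female P42, 75.7% in male P35 and 50.7% in male P36. Without its top cell each pool had, before TMM scaling, 11.2 and 16.5 CPM of Sst (female P40 and P42), against 65.2 and 56.5 CPM (male P35 and P36). Pvalb had 206 and 62.0 CPM in the female pools, against 104 and 82.5 CPM in the male pools, which overlap. Without the 16 cells with Sst or Vip above Pvalb, 5 female and 11 male, the Erbb4 difference was 0.39.

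**Figure D5:**
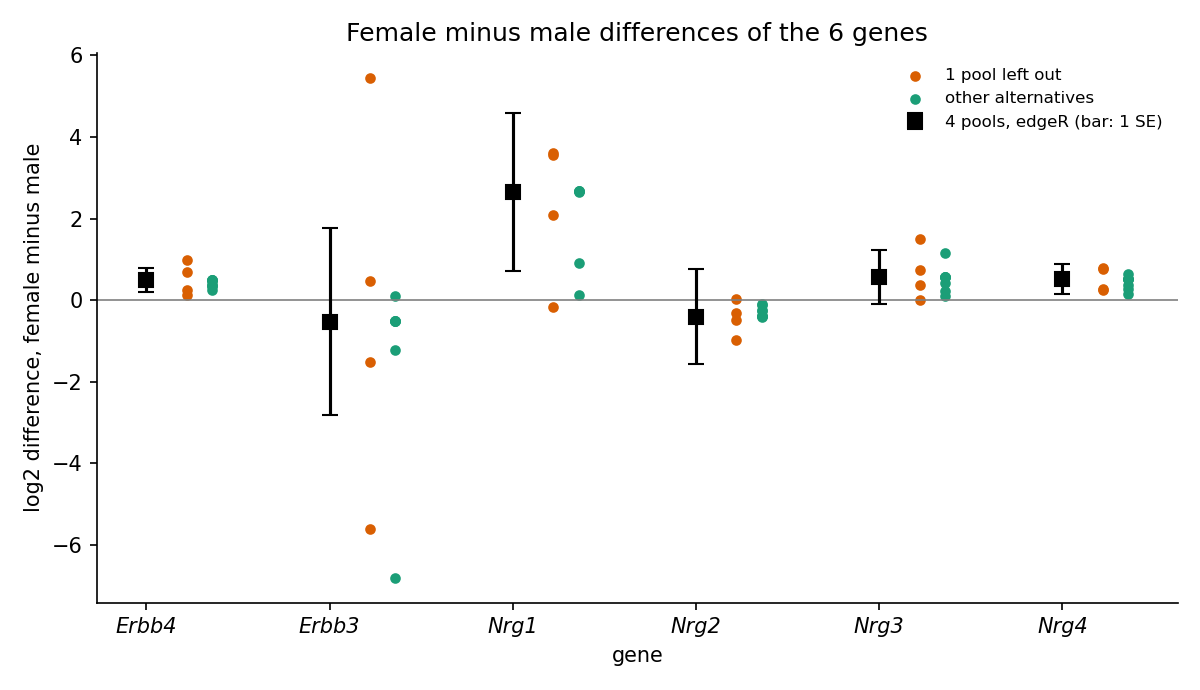
Log2 difference, female minus male, of each gene from the 4 pools with 1 standard error, beside the values with 1 pool left out and under the other alternatives. Erbb4, Nrg3 and Nrg4 stay above 0 (lowest values 0.12, 0.002 and 0.15), while Erbb3, Nrg1 and Nrg2 take both signs.

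Other genes of the pathway were counted in lists by role. Of the other receptors, Erbb2, the usual partner of ErbB3 and ErbB4, had 2 counts in 1 of 54 cells. Egfr, the receptor of EGF, had a count in 22 cells and at least 1 CPM in 5, and 83.6% of its counts came from male P36 cell 3 and male P35 cell 12. It had 0.874 and 0.0488 CPM in the female pools, against 2.94 and 7.75 CPM in the male pools (edgeR unadjusted p = 0.0749). Of the 7 other ligands, Areg, Ereg and Epgn were at 0 in all 54 cells, which allows a share of cells with a count of up to 5.56%. Hbegf, which binds EGFR and ErbB4, had a count in 54 cells and a median of 24.0 CPM, between 0.177 and 240 CPM. Tgfa, a ligand of EGFR, had a count in 17 cells, and 80.3% of its counts came from male P36 cells 13 and 9. It had 0.0433 and 0.0732 CPM in the female pools, against 1.25 and 6.45 CPM in the male pools (log2 difference -6.04, standard error 1.84). Tgfa passed in DESeq2 (adjusted p = 0.0145) and not in edgeR (adjusted p = 0.878). Egf, the founding ligand of the family, had a count in 21 cells.

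Most proteases, signalling genes and negative regulators had counts in every cell, and none of them was called by edgeR in female against male. All 9 proteases were tested, 2 higher and 7 lower in the female pools by sign alone, with a median log2 difference of -0.16. Among them Bace1, a secretase that cuts neuregulin precursors, had a median of 123 CPM over cells, and Ncstn, a subunit of gamma-secretase, had 76.3 CPM. The smallest unadjusted p in edgeR were those of Aph1b (0.163), another gamma-secretase subunit, and Adam17 (0.298), a sheddase. All 20 scaffold and signalling genes were tested, 7 with a positive and 13 with a negative difference and a median of -0.16. Akt1, a kinase downstream of ErbB receptors, had a median of 145 CPM over cells. Dlg4, the scaffold PSD-95 that binds ErbB4, had 12.8 and 2.13 CPM in the female pools, against 1.04 and 0.871 CPM in the male pools (edgeR unadjusted p = 0.0541), and 66.99% of its counts came from female P40 cells 11 and 3. Sos1, an exchange factor for Ras, had 33.5 and 30.7 CPM in the female pools, against 16.9 and 18.3 CPM in the male pools (edgeR unadjusted p = 0.0649).

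All 6 negative regulators were tested, 4 with a positive and 2 with a negative difference and a median of 0.48. Over all 14933 genes the median was 0.0044, and 50.5% of differences were positive. Nedd4, a ubiquitin ligase, had 344 and 364 CPM in the female pools, against 252 and 262 CPM in the male pools (log2 difference 0.46, standard error 0.17, edgeR unadjusted p = 0.0251, adjusted p = 0.887). Wwp1, a ligase that acts on ErbB4, had 34.6 and 38.6 CPM in the female pools, against 21.997 and 25.4 CPM in the male pools (edgeR unadjusted p = 0.126). Rnf41, the ligase Nrdp1 that acts on ErbB3, had a median of 89.0 CPM over cells.

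Membrane values in the labels (vrest, rm and cm, with no unit given) were available for 49 Pass cells each. Their Spearman correlations with Erbb4 were -0.01, 0.03 and -0.20, and with Nrg3 0.03, -0.16 and -0.04. Within pools of 9 to 15 cells, the correlations of Erbb4 with cm and with rm varied in sign. Erbb4 and cm had -0.42 in female P40 and -0.65 in female P42, against 0.07 in male P35 and 0.12 in male P36. Erbb4 and rm had 0.09 in female P40 and 0.38 in female P42, against -0.49 in male P35 and -0.02 in male P36.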

How the data were processed

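The labels' protocols name Nextera XT for the libraries of the 58 cells. The submitters' processing notes name STAR, edgeR and the build GRCm38. The sources used here give no versions, counting tool, annotation or strand setting. Deposited counts are whole numbers per gene with no normalization. The deposited normalized table holds a signal, each cell's counts times 1 factor between 0.866 and 1.32, so depth is left in. All columns matched a labelled cell.

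The members and gene lists were chosen with earlier results of these data known, as were the leaving out of single cells or of cells with Sst or Vip above Pvalb, and the other lengths for the neuregulin shares. CPM were computed from each cell's own total. Pool sums (4 pools, 2 per sex) were made from Pass cells. Genes with a count in at least 10 Pass cells that passed filterByExpr were tested with edgeR 4.0.16 (R 4.3.3): quasi-likelihood F test, TMM, two-sided, Benjamini-Hochberg over 14933 genes, threshold 0.05, with standard errors from the F statistic. Alternatives were DESeq2 1.42.0, limma 3.58.1 on mean log2(CPM + 1) of cells, DESeq2 size factors, no filter, a minimum of 20 cells, cells thinned to 2 M counts, and leaving out each pool. P-values measure the spread between pools, which may be technical. The fits were tested on simulated data. Named genes are the 6 members, the genes most like Erbb4, Nrg3 and Nrg4, and, in each pathway list, those called, the 2 with the highest median and the 2 with the smallest p. Some genes that this rule names are not reported here. Single cells were named after their values were seen. Erbin stands in the table under its older symbol Erbb2ip. Binomial intervals are Clopper-Pearson. Correlations used Python 3.11.15 with numpy 2.4.6 and pandas 2.3.3. No 2 Pass cells had identical counts.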

Additional observations from a re-analysis of the deposited data

Results flagged for a closer look

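In female P42 cells, a group of 10, the highest cell stood far from the next for 3 genes: Nrg2 with 32.1 CPM in cell 4 (next 12.4 CPM), Erbb3 with 21.2 CPM in cell 10 (next 2.85 CPM) and Nrg1 with 10.4 CPM in cell 10 (next 0.462 CPM). Among the 4 Fail cells, 1 cell held all counts of each of these genes: Nrg1 with 29.3 CPM (16 counts), Nrg2 with 16.8 CPM (10 counts) and Erbb3 with 15.1 CPM (9 counts). Of 14 gene and group pairs looked at, 6 stood out this way. The usual rate of about 1 in 20 by chance does not hold for genes at 0 in most cells, as these are, so nothing is read from that number.

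The Fail cells entered no comparison. All 4 had Erbb4 counts above 3, the limit that a count of 0 allows, with 52.0 to 250.01 CPM and a median of 151, so Erbb4 was present in these libraries of 0.545 to 5.08 M counts too. Nrg3 reached 45.8 CPM and Nrg4 40.2 CPM in them.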

How the results depend on the processing

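The number of genes called in female against male was 2. It was 179 with DESeq2, 111 without a filter on low counts, 1 without the cells with Sst or Vip above Pvalb, and 0 to 26 with 1 pool left out, so the count rests on the tool, the filter and single pools. None of the 6 members was called under any of these alternatives (lowest adjusted p 0.525), and of 69 member values under alternatives, 64 kept their sign. The exceptions were Erbb3 with limma (0.10) and with pools left out (-5.63 to 5.45), Nrg1 with pools left out (-0.16 to 3.62) and Nrg2 with pools left out (-0.99 to 0.023). The Erbb4 difference stayed positive throughout, from 0.12 to 0.98. Nrg1 and Erbb3 had no value with a minimum of 20 cells, nor had Nrg1 with thinned cells.

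The Erbb4 correlation with Pvalb was 0.034 within female P40 and -0.12 within female P42 cells, 0.12 to 0.30 with 1 pool left out, and 0.38 at most (Pearson, pseudocount 0.1 CPM). On the deposited normalized signal, the coefficient of variation of Erbb4 was 142% instead of 46.2%, since that table keeps the differences in depth. Detection depends on depth for the sparse genes: with cells thinned to 2 M counts, 12.96% of cells had Erbb3, 11.1% Nrg1, 46.3% Nrg2 and 90.7% Nrg3. No paired analysis was possible because the labels give the groups no shared replicate numbers. With 1 pool left out, the lone pool of a sex is assumed to vary like the other sex. Amplified copies count as reads. The binomial intervals take cells of the same animal as independent, so they are too narrow where such cells are alike.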

Other observations

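Markers of blood and of other neurons differed between the pools by sign. The main edgeR fit, with its filter on low counts, called none of them over all Pass cells, while DESeq2 called some, among them Hba-a1, Sst and Vip. Without that filter edgeR called 4 of 4 blood markers higher in the female pools. It then called lower 1 of 4 somatostatin, 2 of 8 caudal interneuron and 2 of 6 excitatory neuron markers, and 2 of 8 oligodendrocyte markers. All 4 blood markers were higher in the female pools, with a median log2 difference (female minus male) of 2.82 and 4 of 4 at an unadjusted p under 0.05 in edgeR. Per cell, the 4 summed to a median of 81.2 CPM in female and 48.6 CPM in male cells, and to 26926 CPM in the highest female P40 cell. With limma on mean log2 levels of cells, their median difference was 0.60, with 1 of 4 at an unadjusted p under 0.05. All 8 oligodendrocyte markers were lower in the female pools (median -2.33, 2 of 8 at an unadjusted p under 0.05), and so were 7 of 8 markers of caudal interneurons (median -1.87). Per cell, the oligodendrocyte markers summed to a median of 490 CPM in female and 477 CPM in male cells, and to 12822 CPM in the highest male P36 cell. With limma their median difference was -0.999, with 5 of 8 at an unadjusted p under 0.05. Without the 16 cells with Sst or Vip above Pvalb, 4 of 8 caudal markers were lower (median -0.21), and 7 of 8 oligodendrocyte markers (median -1.06, 0 of 8 at an unadjusted p under 0.05). The blood markers had a median log2 difference of 3.57 without those cells, and edgeR called 1 of them. In male P36, cell 3 held 97.7% of the Vip counts. The part of these in the member genes was not tested.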
